A study of Mus musculus with 12 samples.

Results

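The response of macrophages to tumor-conditioned medium (TCM) of NBT3L cells was examined with the tyrosine kinase Syk inhibited. The comparison uses 4 of the 12 RNA-seq libraries of the series, 2 of cells given NBT3L TCM + R788 (SJ11 and SJ12) and 2 of cells given R788 without TCM (SJ7 and SJ8). All 4 were bone marrow derived macrophages (BMDMs) of wild-type C57BL/6 mice, kept in culture for 5 days and then treated for 24 h. R788 (fostamatinib) is a prodrug of a Syk inhibitor and was added at 500 nM, so both groups carried it and they differed by TCM. NBT3L is labelled as a line without MYCN amplification, and NB9464, which conditioned the medium of another group, as one with it. The other libraries, 2 a group, were untreated cells (NS), NB9464 TCM, NBT3L TCM and NB9464 TCM + R788, and they enter below only where the response under R788 is set beside another. By the methods of the study, BMDMs were grown in RPMI with serum and M-CSF, and serum-free DMEM was used to collect NB9464 TCM. The production of NBT3L TCM is not described there. Effects of tumor products and of the base medium therefore cannot be told apart in the comparison. The number of mice and whether libraries came from separate cultures are not stated, so p-values measure the spread between libraries, which may be technical.

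Macrophages sense microbes, dead cells and secreted factors through Toll-like receptors, Fc receptors and C-type lectins. Syk binds the phosphorylated activation motifs of Fc receptors, C-type lectins and their adaptors and passes the signal to phospholipase C, phosphatidylinositol 3-kinase and the CARD9 complex, which activates NF-kB. Interleukin 1 receptors and most Toll-like receptors reach NF-kB through MyD88 without a need for Syk. R788 acts on the kinase and not directly on its transcript, and kinase activity was not measured in these data.

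Library totals of the 4 libraries were 50013076 and 56449685 counts for R788 and 51822054 and 54838959 counts for NBT3L TCM + R788. The library SJ8 stood apart: it had counts in 16149 genes, against 17275 to 18343 in the other 11 libraries, although its number of genes with at least 10 counts (14391) lay within the range of the others (13734 to 14557). Among tested genes, 1117 were at 0 in SJ8 and above 0 in SJ7, and 265 the other way round. Replicates were also less alike in R788, with an SD of their log2 differences of 0.469, against 0.293 to 0.331 in the other 5 groups. Each library was nearest to its own replicate. Because SJ8 is 1 of only 2 control libraries here, counts of genes called are given below with all 4 libraries and, for each gene group, also with SJ7 as the sole control.

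The 12 macrophage markers checked were all detected. They split, with 7 called higher and 4 lower with TCM (DESeq2, adjusted p under 0.05), against 21.5% and 19.9% of all tested genes. Their summed level was 38860 to 42600 CPM in R788 and 49730 to 50650 CPM in NBT3L TCM + R788. The 10 neutrophil markers summed to 145 to 165 CPM and 161 to 165 CPM, in the same order. Neuroblastoma and sympathetic markers, 14 in all, summed to 0.780 to 1.28 CPM and 2.19 to 2.64 CPM, with Mycn, Th, Chga, Stmn2 and Snap25 at 0 in the 4 libraries. Markers of T and NK cells summed to 3.98 to 5.28 CPM and 0.772 to 1.02 CPM, with Cd8a and Ncr1 at 0, and B cell markers to 11.5 to 14.5 CPM and 13.9 to 15.4 CPM, with Ms4a1 and Pax5 at 0. Endothelial markers summed to 69.3 to 96.0 CPM and 31.0 to 31.9 CPM, and fibroblast markers to 58.3 to 67.9 CPM and 64.0 to 65.2 CPM. Dendritic, mast and erythroid marker sums were at most 2.36 CPM in these libraries.

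NBT3L TCM changed 6740 of 16281 tested genes in the presence of R788, which is 41.4% of those tested (DESeq2, adjusted p under 0.05). Of these, 3500 (21.5%) were higher and 3240 (19.9%) were lower with TCM, and 1200 and 1036 of them differed by at least 2-fold. With SJ7 as the sole control, 5806 genes were called (35.7%), and 5380 of the 6740 remained, each with the same sign. The median log2 fold change over all tested genes was 0. Scaling by size factors places this centre near 0, so it does not show whether total RNA changed. The gene groups below are read against this centre and a background of 21.5% higher and 19.9% lower.

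**Figure D1:**
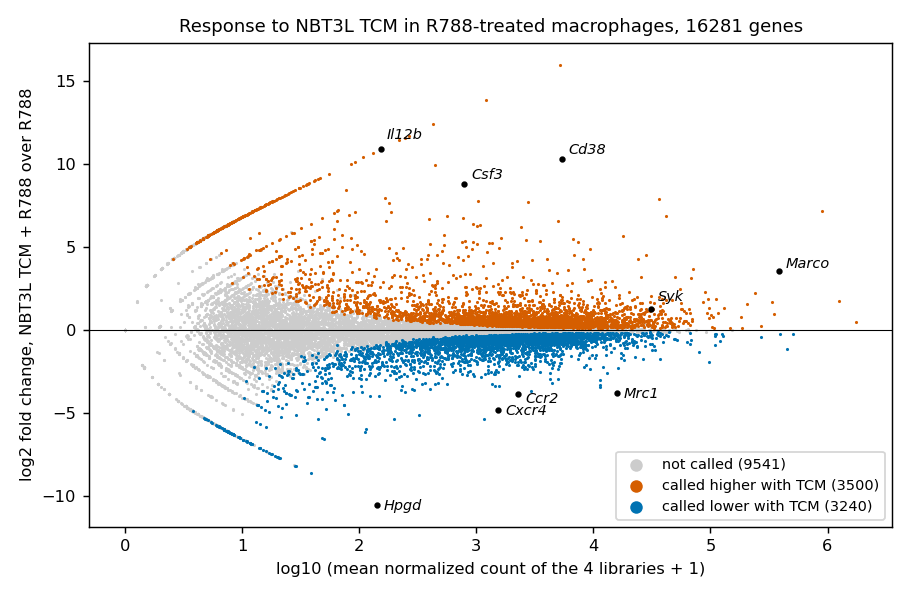
Each point is 1 of 16281 tested genes, with the log10 of its mean normalized count over the 4 libraries (+ 1) on the x axis and the log2 fold change of NBT3L TCM + R788 over R788 on the y axis. Orange points were called higher (3500), blue points lower (3240) and grey points were not called; the curved edges are genes with 0 counts in both libraries of a group, whose fitted fold changes are not bounded by the data.

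Syk itself was transcribed more with TCM (chr13:52583173-52648792, plus strand, GRCm38). Its normalized counts were 18340 and 17600 in R788 and 44190 and 43850 in NBT3L TCM + R788, a log2 fold change of 1.29 ± 0.051 (SE; adjusted p = 1.506e-140). The lower of the TCM libraries was above both R788 libraries. Without R788 the levels averaged 14990 in NS and 37340 with NBT3L TCM, and the difference of the responses with and without R788 was -0.025 (adjusted p = 0.891).

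The 12 largest rises by fitted log2 fold change among well-expressed genes included 3 interleukin genes, a granulocyte growth factor and an NAD-consuming enzyme. They were taken from called genes whose groups did not overlap, which was so in the higher direction for 33.4% of all tested genes and in the lower direction for 32.1%. For 9 of the 12, both R788 libraries held 0 counts, so their fold is a lower bound, taken against 3 counts per library. The rank of these 9 rests on fitted values that the data do not bound. Genes outside the 12 are therefore not shown to have risen less than each of them. An example is Il1a, with means of 9.22 in R788 and 2066 with TCM (log2 fold change 7.79). U90926 (chr5:92209893-92215408, minus strand), a transcript known to be induced in activated macrophages, had 10110 and 10540 normalized counts with TCM, at least 4034-fold higher. Il12a, which encodes the p35 chain of interleukin 12, had 860.0 and 854.1 with TCM (at least 335-fold higher), and its partner Il12b (p40; chr11:44400063-44414033, plus strand) had 307.5 and 297.4 (at least 118-fold higher). Il6 (chr5:30013114-30019981, plus strand), the pleiotropic cytokine of the acute phase response, had 453.9 and 525.5 (at least 191-fold higher). These 3 cytokine transcripts were thus not detectable at this depth with R788 and no TCM, and present in both libraries with it.

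Draxin, which encodes a secreted axon guidance protein, reached 2292 and 2529 normalized counts (at least 941-fold higher). Nhs, Shisa3, Fcrl5 and Ascl2 were at least 206-, 170-, 102- and 83.8-fold higher; exons of Shisa3 overlap those of Atp8a1 on the other strand, and whether counting used the strand is not given in the sources used here. Cd38, an ectoenzyme that consumes NAD, rose from 7.27 and 9.58 to 10860 and 10880 normalized counts, a log2 fold change of 10.33 ± 0.51 (SE; adjusted p = 7.169e-88). Csf3, which encodes the granulocyte colony-stimulating factor G-CSF, rose from 7.27 and 0 to 1460 and 1674 (8.85 ± 0.52), and Zfp811, a zinc finger gene, from 1.82 and 0 to 898.2 and 862.1. All 12 were also called with SJ7 alone, without any other of the 4 libraries, and by edgeR.

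The 12 largest falls were led by Hpgd (chr8:56294585-56321043, plus strand), the enzyme that inactivates prostaglandins. It had 316.3 and 241.1 normalized counts in R788 and 0 in both libraries with TCM, at least 90.0-fold lower. Cxcr4 (chr1:128588199-128592293, minus strand), the receptor of CXCL12, fell from 3182 and 2711 to 98.6 and 113.5 (log2 fold change -4.79 ± 0.25). Ccr2 (chr9:124101950-124113557, plus strand), which guides monocytes along CCL2, fell from 4094 and 4375 to 310.7 and 271.3 (-3.86 ± 0.12). Mrc1 (chr2:14229392-14332057, plus strand), the mannose receptor CD206 and a marker of alternative activation, fell from 27830 and 31160 to 2095 and 2225 (-3.77 ± 0.078). For these 4 genes the libraries with TCM were all below those without, as the selection required.

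St6gal1, a sialyltransferase, fell from 2228 and 2303 to 53.0 and 60.3 normalized counts; BC106179 overlaps it on the other strand. Tnfsf8, Epha2, Cd300lg, Ramp1, Rgs7bp, Sapcd2 and Lama3 completed the list, with log2 fold changes from -6.11 (Tnfsf8) to -3.73 (Lama3). The pair of R788 libraries differed for Epha2 (527.1 and 241.9) and Tnfsf8 (137.2 and 296.2), and the TCM libraries had at most 12.1 and 6.36. All 12 falls were called with SJ7 alone and by edgeR.

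**Figure D2:**
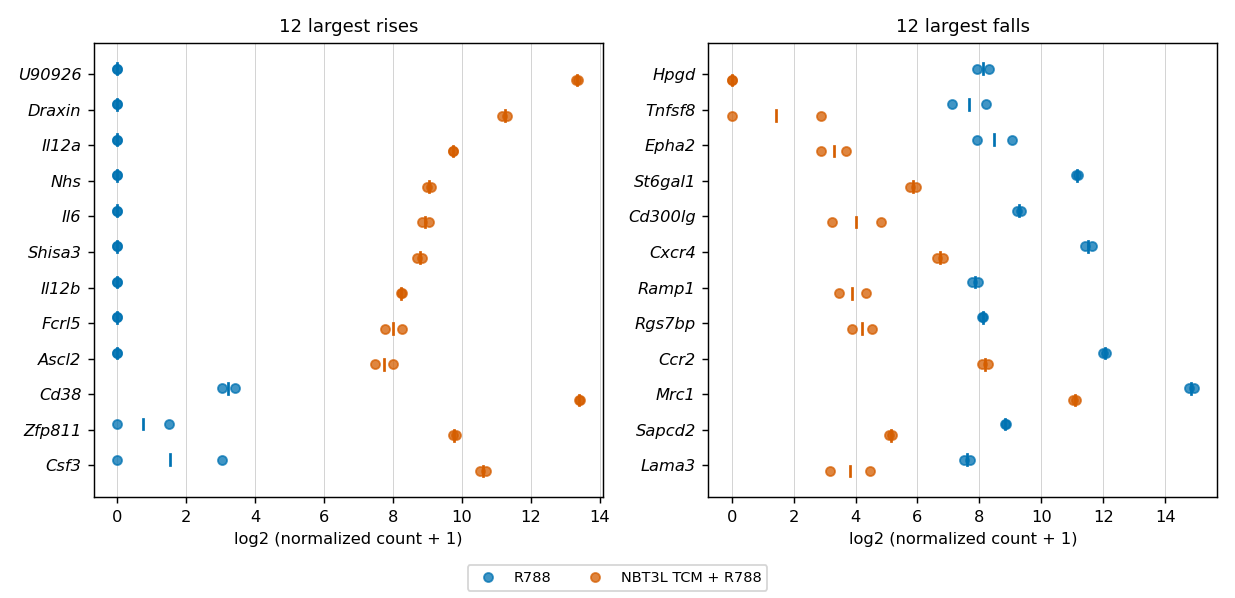
Normalized counts, as log2 (count + 1), of the 12 largest rises (left) and the 12 largest falls (right) in the 2 libraries of R788 (blue) and the 2 of NBT3L TCM + R788 (orange); points are libraries and short bars their mean. The 2 groups are apart in each of the 24 genes because only such genes were selected, and 9 of the rises start from 0 in both R788 libraries.

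Of 22 tested inflammatory cytokine and mediator genes, 19 were higher with TCM and 1 was lower, and the median log2 fold change was 4.21 (16 higher and 1 lower with SJ7 alone). Il1b, encoding interleukin 1 beta, rose from 65.4 and 60.7 to 4922 and 4614 normalized counts (6.24 ± 0.15); the antisense gene Il1bos overlaps it. Saa3, an acute phase serum amyloid, averaged 12200 in R788 and 1768000 with TCM (7.18). Acod1, which makes itaconate, averaged 10230 and 130800, and Nos2, the inducible nitric oxide synthase, 19.1 and 1039. The prostaglandin E2 enzymes Ptgs2 and Ptges rose by 4.53 and 4.54 on the log2 scale, while Hpgd, which degrades their product, was at 0 with TCM. The interleukin 1 receptor antagonist Il1rn (3.04) and the anti-inflammatory cytokine Il10 (means of 78.8 and 628.6) rose as well, and Tnf rose by 1.98. Il18 was the member that fell, from 515.3 and 480.6 to 230.1 and 276.3 (-0.97 ± 0.20).

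Chemokine genes were higher in 14 of 22 tested cases and lower in 3, with a median of 2.59 (2.12 with genes at 0 in a group set to their bound); with SJ7 alone, 14 were higher and 2 lower. Attractants of neutrophils were among the rises. Cxcl3 went from 150.9 and 52.7 to 9705 and 10090 normalized counts, and Cxcl1 from 124.5 and 110.2 to 5246 and 5061. Cxcl5 went from 20.9 and 51.9 to 1493 and 1439. Of monocyte and T cell attractants, Ccl3 (4.28), Ccl4 (3.24), Ccl5 (4.17), Ccl2 (2.51) and Ccl7 (2.74) rose. Cxcl10, which is driven by interferon, did not pass the test, averaging 161.4 in R788 and 164.1 with TCM. Ccl6, Ccl9 and the low-count Ccl24 fell, the last without an adjusted p when SJ7 was the sole control; Ccl6 went from 12710 and 10310 to 4495 and 4771.

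Promoter sequences of RefSeq on GRCm38.p6, from 250 bases before to 50 after a start, were searched on both strands for the NF-kB consensus. It stood in 4 of 15 chemokine promoters (26.7%), against 535 of 32851 promoters in all (1.63%), and in 6 of 19 promoters (31.6%) of NF-kB factors and their feedback regulators. Of chemokine genes with a promoter searched, 3 of 8 higher genes (Cxcl1, Cxcl2 and Cxcl3) and 1 of 2 lower genes (Ccl9) held it. In the NF-kB group, 3 of 12 higher and 0 of 2 lower genes held it, as did Rel, which was not called. The letters do not set the risen chemokine genes apart. A match is a description of letters and not of a bound site. Windows of 100 bases before the start of the neighbouring genes Cxcl1 and Cxcl2, at chr5:90891129-90891228 (plus strand) and chr5:90903776-90903875 (plus strand), are shown because both genes rose and each window holds 2 copies, in capitals:
Cxcl1: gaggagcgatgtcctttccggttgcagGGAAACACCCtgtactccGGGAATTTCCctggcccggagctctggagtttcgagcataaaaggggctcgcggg
Cxcl2: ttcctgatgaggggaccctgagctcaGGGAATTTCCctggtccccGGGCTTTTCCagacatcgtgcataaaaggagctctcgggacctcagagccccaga

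Among 20 tested NF-kB factors and feedback regulators, 16 were higher and 2 lower, with a median of 1.12 (16 and 1 with SJ7 alone). The antioxidant enzyme Sod2, an NF-kB target, went from 10460 and 8745 to 88360 and 89520 normalized counts (3.21 ± 0.067). Nfkbiz, an atypical inhibitor that steers secondary response genes including Il6, went from 1533 and 1539 to 10420 and 10310 (2.75 ± 0.066). Zc3h12a, an RNase that destroys cytokine transcripts, rose by 1.91, and Tnfaip3, the A20 deubiquitinase, by 1.52. The subunits Rela (-0.13) and Rel (-0.16) did not pass the test. The inhibitor Nfkbie fell by 0.65, and Tnfaip2 fell by 0.17 (adjusted p = 0.0176), a call that was lost with SJ7 alone. Of 20 AP-1 and immediate early genes, 12 were higher and 3 lower; the growth-induced factors Egr1 (2.34) and Egr3 (2.30) and the survival gene Ier3 (2.23) rose, and Klf2 (-1.11), Mafk (-0.38) and Ier2 (-0.37) fell. With SJ7 alone, 12 were higher and 2 lower, and the calls of Mafk and Ier2 were lost (DESeq2, adjusted p = 0.0938 and 0.0657) while Jun was called lower (-0.25).

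The study names a panel of immunosuppressive genes, of which 18 were tested. Of these, 14 were higher and 3 lower, with a median of 2.18 (1.10 with genes at 0 set to their bound); the panel was chosen by the study on these samples and is no independent evidence of a direction. Its largest rises were Csf3, Cxcl3 and Il1b. With SJ7 alone, 14 were higher and 2 lower. The falls were Cd163 (1183 and 1180 to 563.1 and 645.1), a scavenger receptor for haemoglobin, Vegfa (2680 and 2150 to 1716 and 1627), the angiogenic growth factor, and Igf1r (-0.93), whose call was lost with SJ7 alone.

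Genes of glycolysis and targets of the hypoxia-inducible factor HIF1A were higher in 29 of 34 tested cases and lower in 1, with a median log2 fold change of 1.38 (28 higher and 1 lower with SJ7 alone). Pfkfb3, which makes the allosteric activator of phosphofructokinase, went from 2080 and 2008 to 15750 and 16000 normalized counts (2.96 ± 0.064). Slc16a3, the lactate exporter MCT4, averaged 6738 and 33240 (2.30), and Ldha, lactate dehydrogenase A, 41290 and 150300 (1.86). The oxygen sensor Egln3 went from 366.3 and 375.2 to 2452 and 2311 (2.68 ± 0.13). Genes from glucose uptake (Slc2a1, 1.64) over Pfkl (2.10), Tpi1 (1.81), Pgk1 (2.01) and Eno1 (1.37) to lactate export thus rose. Another glucose transporter, Slc2a3, averaged 436.4 and 369.4 and did not pass the test. Vegfa, a HIF1A target too, was the member that fell (-0.53 ± 0.12). Hif1a itself rose by 1.39.

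The hypoxia response letters NACGTGC stood on either strand in 14 of 44 promoters of this group (31.8%) and in 5.91% of all promoters. All 14 genes that held them were called higher. Of the 31 members with a promoter searched, 27 were higher, so the letters do not set these genes apart. The windows of Slc16a3 (chr11:120948967-120949066 (plus strand)), with 2 copies, and of Ldha (chr7:46845704-46845803 (plus strand)) are shown because they belong to the end of the pathway, lactate formation and export; capitals mark the letters, which lie on the opposite strand in Ldha:
Slc16a3: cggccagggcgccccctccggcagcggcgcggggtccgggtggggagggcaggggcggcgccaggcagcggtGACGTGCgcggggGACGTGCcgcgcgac
Ldha: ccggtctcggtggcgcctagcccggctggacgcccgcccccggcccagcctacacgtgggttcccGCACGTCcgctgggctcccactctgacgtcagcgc

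Nuclear-encoded subunits of oxidative phosphorylation, the mitochondrial route to ATP, were higher in 26 of 30 cases by DESeq2 and by edgeR, and the other 4 were not called; with SJ7 alone 26 were again higher. The median was 0.38, against 1.38 in glycolysis. Cytochrome c (Cycs) had the largest value of these, from 2313 and 1780 to 5049 and 5284 normalized counts. Ndufa1 showed the unevenness of the controls, with 1697 in SJ7 and 675.4 in SJ8, and its log2 fold change was 1.04 with both and 0.52 with SJ7 alone.

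Chaperones of the endoplasmic reticulum and genes of the unfolded protein response were higher in 18 of 20 cases and lower in 1, with a median of 1.07 (18 and 1 with SJ7 alone). Sdf2l1, a component of the chaperone complex of BiP, went from 5012 and 4298 to 18970 and 19830 normalized counts (2.06 ± 0.084), and Hyou1 from 6905 and 6855 to 26500 and 25990 (1.93 ± 0.051). Calreticulin (Calr) rose by 1.69 and BiP (Hspa5) by 1.27. The stress sensor Ern1 (IRE1 alpha) was the member that fell, from 3410 and 3795 to 2452 and 2499. The ER stress element joins a CCAAT and a CCACG box. It was found on either strand in 7 of 17 promoters of the group (41.2%) and in 39 of all 32851 (0.119%). The 7 genes were all called higher, but so were 16 of the 17 members with a promoter searched. The windows of Hspa5 (chr2:34771984-34772083 (plus strand)) and Calr (chr8:84847035-84847134 (minus strand)) are shown with the element in capitals; in Calr it lies on the opposite strand:
Hspa5: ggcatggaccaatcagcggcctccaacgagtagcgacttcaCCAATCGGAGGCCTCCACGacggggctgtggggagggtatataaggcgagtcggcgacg
Calr: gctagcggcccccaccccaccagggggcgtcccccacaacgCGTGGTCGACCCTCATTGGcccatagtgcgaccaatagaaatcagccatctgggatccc

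Antioxidant genes and targets of the transcription factor NRF2 were higher in 15 of 22 cases and lower in 1. With SJ7 alone, 15 were higher and 3 lower, with Taldo1 (-0.22) and Gpx4 (-0.17) added to Nfe2l2. Hmox1, haem oxygenase, went from 29960 and 29100 to 148000 and 149100 normalized counts (2.33 ± 0.042), Slc7a11, the cystine importer, from 3964 and 4713 to 26320 and 26650 (2.61 ± 0.082), and glutathione reductase (Gsr) rose by 1.82. The transcript of NRF2 itself (Nfe2l2) fell by 0.31. Its response element letters, TGACNNNGC, stood on either strand in 9 of 27 promoters (33.3%), and in 12.4% of all promoters.

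Among genes of iron handling, lipocalin 2, the ferritin heavy chain and ceruloplasmin rose and the exporter ferroportin fell. Lcn2, lipocalin 2, which binds bacterial iron carriers, went from 785.3 and 610.8 to 82090 and 84050 normalized counts (6.90 ± 0.072). The ferritin heavy chain Fth1 went from 618900 and 525200 to 1940000 and 1959000 (1.77), and the ferroxidase ceruloplasmin (Cp) from 91.8 and 103.0 to 3188 and 2804; Hps3 overlaps Cp on the other strand. The iron exporter ferroportin (Slc40a1) fell from 7477 and 7626 to 1030 and 973.7 (-2.92 ± 0.093), and the transferrin receptor Tfrc fell by 0.45. In all, 7 of 12 members were higher and 3 lower, as with SJ7 alone.

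Receptors for the uptake of particles and dying cells split. Marco, a scavenger receptor for bacteria and particles, went from 62150 and 58010 to 713600 and 702900 normalized counts (3.56 ± 0.049). Gas6, the bridging molecule that links phosphatidylserine to TAM receptors, fell from 19940 and 20250 to 2469 and 2646 (-2.97 ± 0.077), and its receptor Axl from 838.9 and 1313 to 140.0 and 229.1 (-2.54 ± 0.24). Of 15 members, 6 were higher and 9 lower. In the complement group, 6 of 17 were higher and 5 lower, and both groups had the same counts with SJ7 alone. Components of the alternative route rose, Cfb from 20.9 and 21.6 to 770.9 and 773.7 and C3 by 1.65 on the log2 scale, and those of the C1q complex fell, C1qa from 14420 and 13050 to 2853 and 3159 and C1qc by 1.81. Gas6 shares exon bases with Tmem255b on the other strand and Cfb with Gm20547 on its own strand, so reads may be shared.

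Interferon-stimulated effector genes went against the cytokines: 23 of 32 were lower with TCM and 1 was higher, with a median of -0.73 (the same counts of 23 and 1 with SJ7 alone). Oasl2, a member of the oligoadenylate synthetase family of RNA sensors, fell from 4617 and 5300 to 1089 and 1020 normalized counts (-2.23 ± 0.080). Oas3 fell from 5849 and 6204 to 1840 and 1528 (-1.84 ± 0.084), and Irf7, the transcription factor that amplifies interferon production, by 1.14. Of the 8 members that did not pass the test, Isg15, Usp18, Oasl1 and Cxcl10 had values between -0.15 (Isg15) and 0.025 (Cxcl10). The member that rose was Bst2, tetherin, from 14170 and 11680 to 17580 and 18050. Among the 11 tested guanylate binding proteins and GTPases, 7 were lower and 1, Igtp, was higher (the same counts with SJ7 alone); Gbp9 had the largest fall of those with a mean over 100 counts, from 722.6 and 827.9 to 126.2 and 180.9, and shares exons with Gbp4 and Gbp8, so its reads may be split.

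The core letters of the interferon-stimulated response element stood on either strand in 17 of 29 promoters of the effector genes (58.6%) and in 3.44% of all promoters, among them 13 of the 18 lower genes with a promoter in the table. The windows of Ifit1 (chr19:34640759-34640858 (plus strand)), an effector that binds foreign RNA and fell by 0.43, and of Oas3 (chr5:120777680-120777779 (minus strand)) are shown because they differ in the number and strand of the copies, in capitals:
Ifit1: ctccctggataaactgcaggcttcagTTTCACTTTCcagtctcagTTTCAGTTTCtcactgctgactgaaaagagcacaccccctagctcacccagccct
Oas3: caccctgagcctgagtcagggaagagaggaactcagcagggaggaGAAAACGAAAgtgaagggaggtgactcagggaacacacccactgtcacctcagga

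The transcripts of the amino acid response, driven by ATF4, were lower in 16 of 24 cases and higher in 4, with a median of -0.69 (17 lower and 4 higher with SJ7 alone). Chac1, a glutathione-degrading enzyme, fell from 612.6 and 475.0 to 33.9 and 54.3 normalized counts (-3.62 ± 0.30), and the pseudokinase Trib3 from 1505 and 1828 to 270.4 and 224.1 (-2.75 ± 0.16). The serine synthesis enzyme Phgdh fell from 2347 and 2861 to 498.4 and 412.0 (-2.52 ± 0.16), and asparagine synthetase (Asns) by 1.97. The members that rose were Slc7a11, a target of NRF2 as well, its partner chain Slc3a2 (0.61), Ppp1r15a (1.17) and Ddit4 (0.67).

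All 24 mitosis genes were lower with TCM, with a median of -1.68, and they remained lower with SJ7 alone. Cenpf, a kinetochore protein, fell from 2244 and 2728 to 358.4 and 429.1 normalized counts (-2.66 ± 0.16), and Kif23, a motor protein of cytokinesis, from 4083 and 4456 to 889.7 and 956.6 (-2.21 ± 0.11). The replication genes moved less: 15 of 27 were lower, 3 were higher and the median was -0.29 (13 lower and 4 higher with SJ7 alone), with Tk1, thymidine kinase, down by 0.97 and E2f1 up by 0.44. The cell cycle letters TTTGAA stood on either strand in 16 of 21 mitosis promoters (76.2%) and in 17.9% of all promoters; the window of Mki67 (chr7:135716425-135716524 (minus strand)), the proliferation marker Ki-67, which fell by 1.52, holds them in 2 places, in capitals:
Mki67: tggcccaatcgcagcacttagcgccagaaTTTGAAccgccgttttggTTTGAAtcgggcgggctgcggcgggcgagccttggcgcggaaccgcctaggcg
The other letters searched gave mixed shares. The NF-kB consensus was in 4 of 20 cytokine promoters. The E2F letters TTTGGCGC were in 5 of 23 replication promoters (21.7%, against 0.514% of all), and the ATF4 letters TGATGNAAT in 2 of 25 promoters of the amino acid response (8.0%, against 0.965%). The AP-1 letters TGACTCA were in 4 of 20 cytokine promoters and 0 of 21 promoters of the AP-1 group, against 5.2% of all. The sterol letters TCACNCCAC were in 1 of 20 sterol and 0 of 21 fatty acid promoters (1.24% of all), and the CLEAR element of lysosome genes in 0 of 31 (0.326% of all).

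Fewer dividing cells and less of these transcripts in each cell cannot be told apart in bulk RNA, and the same holds for every other group here.

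Antigen presentation and costimulation did not move as a block. Of 11 tested class II genes, 4 were lower (Ciita, H2-Aa, H2-Eb1 and Cd74) and 1 was higher, H2-Ab1, which went from 1017 and 979.6 to 2460 and 2962 normalized counts (1.44 ± 0.14) while its partner chain H2-Aa fell from 729.8 and 827.9 to 435.8 and 444.1 (-0.82 ± 0.18). Class I genes were higher in 4 of 15 cases and lower in 7, and checkpoint and costimulatory genes higher in 5 of 15 and lower in 7. With SJ7 alone, the counts of higher and lower genes were 1 and 5 in class II, 4 and 9 in class I and 4 and 7 among checkpoint genes; without SJ7, that is with SJ8 alone, only 2 class II genes were lower. The checkpoint ligand PD-L1 (Cd274) went from 1534 and 1484 to 7884 and 7246 (2.33 ± 0.069), and the costimulatory receptor Cd40 from 370.8 and 407.2 to 1377 and 1290. The costimulatory ligand Cd86 fell from 818.9 and 934.9 to 226.9 and 311.5 (-1.70 ± 0.22), and the receptor TIM-3 (Havcr2) from 2391 and 2473 to 484.6 and 382.8.

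Of 25 Fc gamma receptor and Syk pathway genes, 17 were higher and 5 lower, with a median of 0.51 (the same counts with SJ7 alone). The activating receptor Fcgr4 went from 1369 and 1257 to 4676 and 4519 normalized counts (1.81), whereas the activating receptor Fcgr3 fell from 26430 and 20790 to 12720 and 12630 (-0.90). The adaptors Blnk (1.72) and Pik3ap1 (1.47) rose, and Card9 fell by 0.43. In the C-type lectin group, 10 of 14 genes were higher, also with SJ7 alone, including Mincle (Clec4e), a receptor for glycolipids and dead cells, which went from 14840 and 12800 to 122100 and 121700 (3.14 ± 0.060), and Dectin-2 (Clec4n, 1.63). The group also holds Syk-coupled receptors that are not C-type lectins. Its 4 lower members were led by Mrc1 and included the Syk-coupled receptors Trem1 (-1.94) and Trem2 (-1.59).

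The remaining groups were mixed. Chemokine and cytokine receptors were higher in 7 of 27 cases and lower in 14 (7 and 13 with SJ7 alone), with Il1r1 up (2.56) and Cx3cr1, the fractalkine receptor, down (-2.48). Toll-like receptors and adaptors were higher in 11 of 20 and lower in 7 (9 and 8 with SJ7 alone); the coreceptor Cd14 rose by 1.66, and Tlr5 (-2.96), Tlr3 (-1.19) and Tlr4 (-0.87) fell. Among matrix and protease genes, 10 of 23 were higher and 7 lower, but 7 and 8 with SJ7 alone, so the balance rested on SJ8: the membrane protease Mmp14 went from 4939 and 5114 to 45870 and 45460 normalized counts, and osteopontin (Spp1) fell from 23320 and 21820 to 3720 and 3850. Lineage factors were higher in 7 of 22 and lower in 12 (7 and 13 with SJ7 alone), with Batf up (3.22) and Klf4 (-2.64) down. Lysosome genes (14 higher and 11 lower of 32) and actin genes (15 and 4 of 25) shifted little in the median, by 0.08 and 0.22; with SJ7 alone the counts were 14 and 12, and 14 and 5.

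Genes of lipid metabolism were mixed as well. Apolipoprotein E (Apoe), which carries cholesterol out of macrophages, fell from 18910 and 22260 to 2109 and 2147 normalized counts (-3.27 ± 0.098), while the cholesterol exporter Abca1 rose by 0.72. Fatty acid synthesis and LXR targets were higher in 6 of 19 and lower in 6, sterol synthesis genes higher in 3 of 24 and lower in 8, and lipid handling genes higher in 7 of 20 and lower in 10. With SJ7 alone these counts were 5 and 6, 2 and 7, and 7 and 10. Of 12 glucocorticoid-responsive genes, 4 were higher and 6 lower (3 and 6 with SJ7 alone); Tsc22d3 (GILZ) fell from 5710 and 6255 to 1032 and 1048 (-2.52 ± 0.088).

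**Figure D3:**
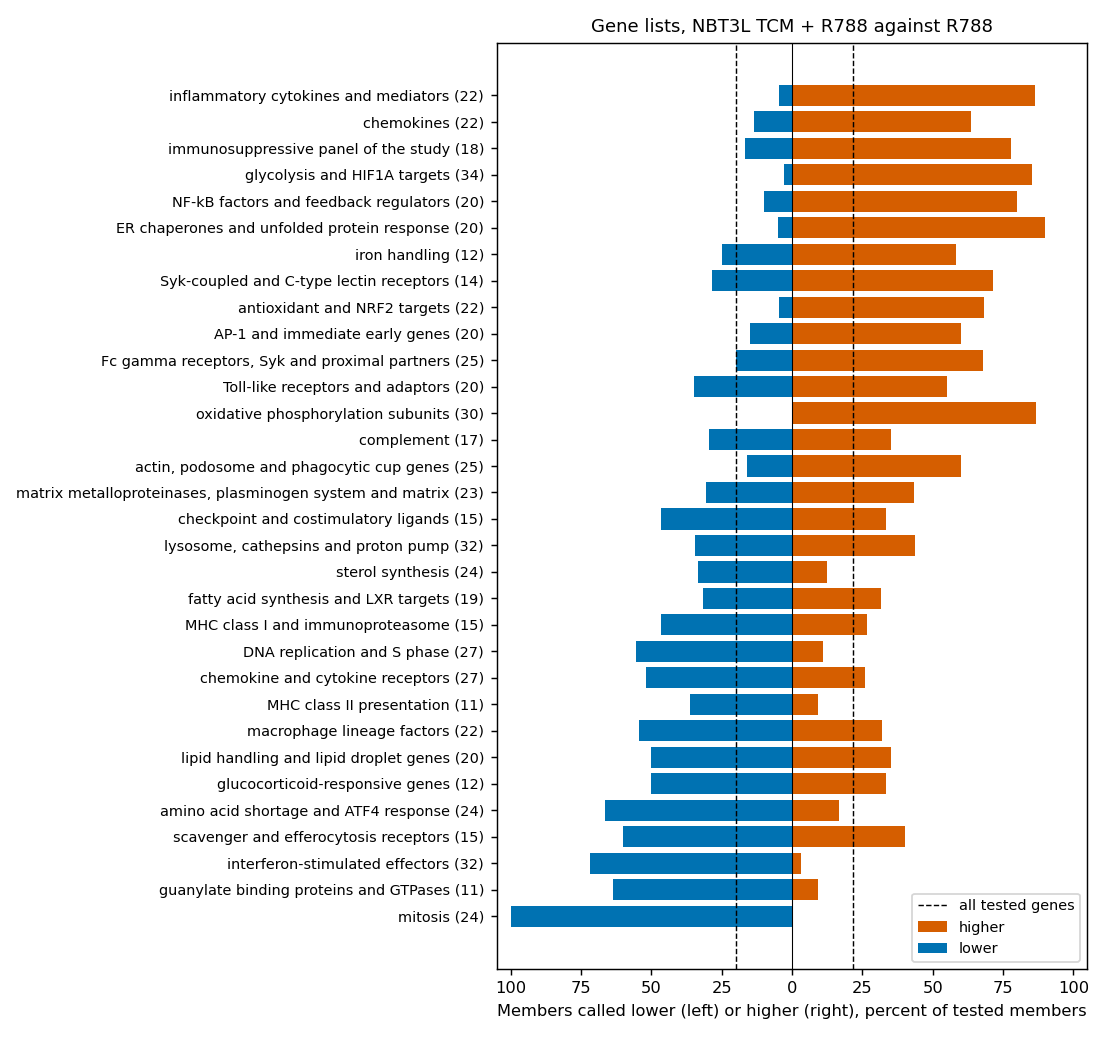
Share of the tested members of 32 gene lists called higher (right, orange) or lower (left, blue) in NBT3L TCM + R788 against R788, with the number of tested members in parentheses and lists ordered by median log2 fold change. Dashed lines mark the shares over all 16281 tested genes, 21.5% higher and 19.9% lower; inflammatory cytokines and mediators stand at the top and mitosis, with 24 of 24 lower, at the bottom.

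The response under R788 was then set beside that without it, NBT3L TCM against NS, which shares no library with it. Without R788, 5755 genes were called (35.3%). Of the 6740 genes called under R788, 4485 (66.5%) were called in both, which is 77.9% of those called without R788, and 4389 of them had the same direction. Over all tested genes, Pearson's r between both responses was 0.533 and Spearman's rho 0.578. Across the 11500 genes with a mean of at least 50 normalized counts, Pearson's r was 0.866. These are descriptions over genes, which are not independent replicates. Genes raised at least 2-fold without R788 (1017) had a median log2 fold change of 2.03 without it and 1.69 with it, and those lowered at least 2-fold (940) had -1.67 and -1.37. These genes were selected on the value without R788, so each pair of medians is a description.

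The test of the difference itself called 1649 genes (10.1%), 842 with a more positive response under R788 (5.17%) and 807 with a more negative one (4.96%). With SJ7 alone as control, 1521 genes were called, 795 and 726. The count was 2585 with SJ8 alone, and 1034, 1063 and 1069 without SJ2 of NS, SJ6 of NBT3L TCM and SJ12. Most called genes had a different level without TCM: of the 842, 777 were lower in both R788 libraries than in both NS libraries, and 321 were higher in both NBT3L TCM + R788 libraries than in both with NBT3L TCM, against 318 lower. Of the 807, 668 started higher in R788 than in NS in both libraries, and 432 were lower in both NBT3L TCM + R788 libraries than in both with NBT3L TCM, against 208 higher. The R788 libraries enter both the starting level and the response, so these counts are not independent of the call. The shares of all tested genes apart in these ways were not worked out.

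For glycolysis the difference was positive in 20 of 34 members. The median log2 difference of its members from NS was 0.900 and 0.873 in the NBT3L TCM libraries and 0.913 and 0.847 in the NBT3L TCM + R788 libraries, whereas the R788 libraries without TCM were at -0.347 and -0.394. The group medians with TCM thus overlapped. Of the 34 members, 20 were higher in both NBT3L TCM + R788 libraries than in both with NBT3L TCM. The share of all tested genes apart in this way was not worked out, so this count describes the members only. The summed level of the 34 members was 23120 to 23170 CPM with NBT3L TCM + R788 against 21870 to 22250 CPM with NBT3L TCM. Ankrd37, a HIF1A target, had a difference of 1.84 (adjusted p = 4.5e-11), with means of 422.5 in NS, 887.8 with NBT3L TCM, 134.5 in R788 and 1009 with both; it overlaps Lrp2bp and Ufsp2 on the other strand. ER chaperones had 11 positive and 2 negative differences of 20, with library medians of 0.830 and 0.835 with NBT3L TCM and 0.770 and 0.782 with both, and -0.394 and -0.343 in R788.

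For interferon-stimulated effectors the level stayed apart. The difference was negative in 15 of 32 members and positive in 1. All 32 were lower in both R788 libraries than in both NS libraries, and the median of the group was -2.17 and -2.15 in R788, -0.476 and -0.449 with NBT3L TCM, and -2.83 and -2.58 with both. Oasl2 averaged 18650 in NS, 8616 with NBT3L TCM, 4959 in R788 and 1054 with both, a difference of -1.12 (adjusted p = 3.0e-22). None of the 32 was higher with both than with NBT3L TCM in both libraries. The shares of all tested genes apart in these ways were not worked out. This count and that of R788 against NS therefore describe the members only. The ATF4 group had 8 negative differences of 24, with R788 at 0.471 and 0.383, NBT3L TCM at -0.560 and -0.323, and both at -0.134 and -0.229. Mitosis had 13 positive differences of 24, and DNA replication 14 of 27; mitosis medians lay at -0.650 and -0.561 in R788, and at -2.24 and -2.23 with both. For inflammatory cytokines, 4 differences were positive and 6 negative of 22, with a median difference of 0.024. The group was at -0.164 and -0.72 in R788, 5.43 and 4.97 with NBT3L TCM, and 4.17 and 3.83 with both. Its summed level was 30640 to 31800 CPM with NBT3L TCM and 36090 to 37370 CPM with both. Saa3 made up most of this sum with both, at a mean of 1768000 normalized counts, and Acod1 came next at 130800. Saa3 had a difference of 0.99 and Acod1 of -0.32. The sum therefore follows mainly 1 gene and does not describe the group, whose medians were lower with both.

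**Figure D4:**
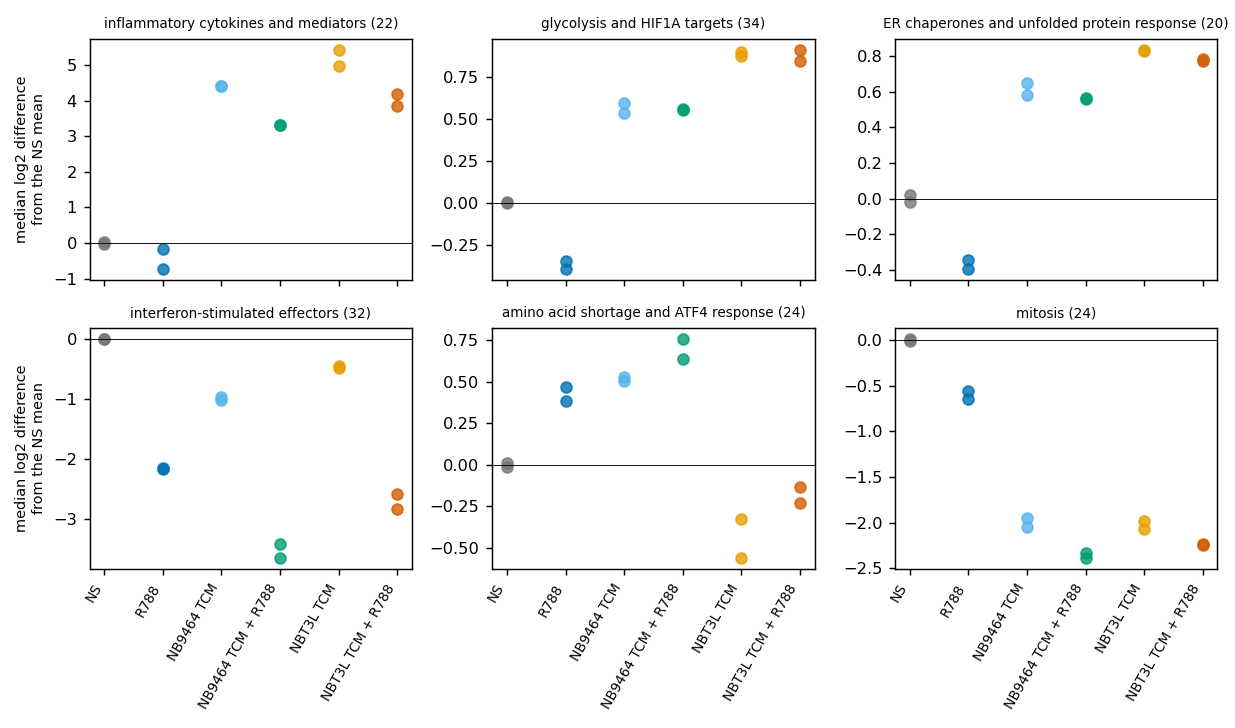
Median, over the tested members of 6 gene lists, of the log2 (normalized count + 1) minus its mean in NS, for each of the 12 libraries; points are libraries, 2 a group, and the number of members is in parentheses. With R788 alone, glycolysis, ER chaperones, interferon effectors and mitosis lie below NS; with NBT3L TCM the glycolysis medians overlap with and without R788, those of ER chaperones lie at 0.830 and 0.835 against 0.770 and 0.782, and those of interferon effectors are far apart.

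Single genes with the largest differences had low counts in some group. Edn1, endothelin 1 (chr13:42301476-42307990, plus strand), was at 0 in both NS libraries and at a mean of 341.7 with NBT3L TCM, and went from 23.6 and 22.4 in R788 to 118.8 and 132.6 with both; Gm47118 overlaps it on the other strand. Cxcl5 also rose from a higher start under R788 and reached 1466 against 2068, a difference of -3.79 (adjusted p = 9.9e-09). Vegfc, a growth factor of lymphatic vessels, went from 0 and 7.98 in R788 to 110.3 and 159.8, and from 101.5 in NS to 304.1 with NBT3L TCM. Rasgrp3, an activator of Ras, fell from 377.1 in NS to 4.48 with NBT3L TCM, and from 321.7 and 315.4 to 57.3 and 60.3 under R788, a difference of 3.92 (adjusted p = 6.4e-06). In the more abundant Lpl, lipoprotein lipase, the sign turned: means were 142400 in NS and 57410 with NBT3L TCM, but 20810 and 21550 in the R788 libraries and 38910 and 37720 with both (difference 2.17). Cd86 averaged 540.1 in NS and 595.3 with NBT3L TCM, whereas it fell under R788 (difference -1.84, adjusted p = 2.3e-07).

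**Figure D5:**
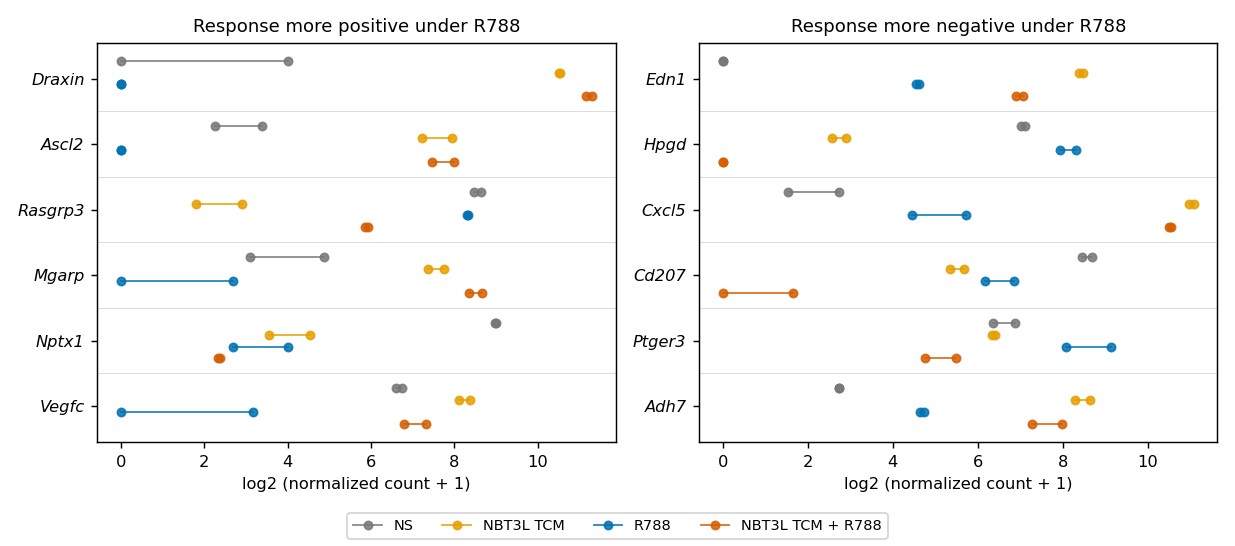
Normalized counts, as log2 (count + 1), of the 6 genes with the largest more positive (left) and the 6 with the largest more negative response under R788 (right), in NS (grey), NBT3L TCM (yellow), R788 (blue) and NBT3L TCM + R788 (orange); each point is a library and a line joins the 2 libraries of a group. Draxin and Ascl2 are at 0 in both R788 libraries, Edn1 in both NS libraries and Hpgd in both with NBT3L TCM + R788.

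Under R788, the medium of NBT3L cells and that of NB9464 cells were compared directly, NBT3L TCM + R788 against NB9464 TCM + R788. Of 16281 genes, 1567 differed (9.62%), 992 higher with NBT3L TCM (6.09%) and 575 lower (3.53%). Leaving out any 1 of the 4 libraries (SJ9 to SJ12) lowered the count to between 851 and 994. Il1b differed most among the higher genes by the naming rule (3.05 on the log2 scale, adjusted p = 1.8e-182), followed by Serpinb2 (2.61), Pdpn (2.03), Serinc2 (2.02), Selenow (1.95) and Ccl7 (1.91). Those lower with NBT3L TCM were led by Chac1 (-3.51), Klf9 (-3.41), Tubb3 (-3.03), Hif3a (-2.65), Trib3 (-2.54) and AI506816 (-2.53). By groups, 25 of 34 glycolysis genes and 23 of 32 interferon effectors were higher with NBT3L TCM, and 14 of 27 replication genes were higher. Of the 24 ATF4 response genes, 16 were lower and 1 was higher. As library medians from NS, interferon effectors stood at -3.415 and -3.651 with NB9464 TCM + R788, and the ATF4 group at 0.636 and 0.759, above its -0.134 and -0.229 with NBT3L TCM + R788. Tubb3, Hif3a and AI506816 had means of 38.1 to 41.5 normalized counts with NBT3L TCM + R788 and are low-count genes. Chac1 was also low in that group, with a mean of 44.1. How the media were made may differ, and this cannot be told apart from the cells that conditioned them.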

How the data were processed

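The deposited table held raw read counts per Ensembl gene for 54232 genes, one column a library. By their methods and processing notes the authors aligned reads to mm10 (STAR 2.6.1d, Salmon 1.4.0 among the tools named); which program made the deposited counts, and whether strand was used, are not given in the sources used here. The labels state paired-end reads and 2 libraries a group, the methods single reads and triplicates. Groups came from the labels. Symbols and positions (1-based) came from GENCODE M21 (GRCm38), which held 54165 of the IDs, and promoters from RefSeq (GRCm38.p6).

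A gene was tested if 2 or more of the 12 libraries held 10 or more counts for it, which left 16281. DESeq2 1.42.0 (R 4.3.3) was fitted once to the 12 libraries with 6 group means and median-of-ratios size factors. Wald tests were two-sided and log2 fold changes unshrunken. P-values were adjusted by Benjamini-Hochberg over the tested genes that passed DESeq2's independent filtering, and its outlier filtering was off. No adjusted p was given for 632 of 16281 genes in the main comparison, 3788 for the difference of responses and 1263 between media. Genes were called at an adjusted p under 0.05. Normalized counts are counts divided by size factors and not by gene length, so levels are not compared between genes as amounts. Errors are standard errors of the log2 fold change, with 2 libraries a group; depth was 44977847 to 56449685 counts, and a fold against a group at 0 was taken against 3 counts per library, which covers counting error only. The fit was tested on simulated counts. Genes were named by a rule: Syk; the 12 largest rises and falls among called genes averaging 100 or more normalized counts whose groups did not overlap; up to 3 called members in each direction of each list (lists of 12 or fewer in full); and the 6 largest in each direction for the other contrasts. Other list members are given by value where a group is described, and were chosen after their values were seen. The members and the 32 gene lists and 10 marker lists were chosen with earlier results of these data known. Alternatives were edgeR 4.0.16 (quasi-likelihood, TMM), TMM factors, no filter, a mean of at least 50 counts, counts divided by 2, the compared libraries alone, a 2-fold minimum and each library left out. Some items are not reported here.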

Additional observations from a re-analysis of the deposited data

Results flagged for a closer look

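The response to NBT3L TCM differed with and without R788 in 1649 genes by the test of the difference itself (DESeq2, adjusted p under 0.05). The values that follow are log2 responses with R788 minus those without. Among named genes, the response was more positive under R788 for Draxin (6.31), Ascl2 (5.51), Rasgrp3 (3.92), Mgarp (3.75), Nptx1 (3.60) and Vegfc (3.43). It was more negative for Edn1 (-8.49), Hpgd (-5.99), Cxcl5 (-3.79), Cd207 (-3.41), Ptger3 (-3.30) and Adh7 (-2.93). Draxin and Ascl2 were at 0 in both R788 libraries, Hpgd in both NBT3L TCM + R788 libraries and Edn1 in both NS libraries, so the fitted sizes of these 4 are not bounded by the data and serve as no bounds.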

How the results depend on the processing

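With a 2-fold minimum, 2236 genes were called under R788 (1200 higher, 1036 lower), 288 differed with and without R788 (131 more positive, 157 more negative) and 294 differed between the media (155 higher, 139 lower). Leaving out 1 library gave 5411 to 6844 genes for NBT3L TCM + R788 against R788 (2588 to 3106 lower, 2804 to 3738 higher), 1034 to 2585 for the difference with and without R788 (510 to 1503 more positive, 524 to 1082 more negative) and 851 to 994 for the comparison of media (534 to 661 higher, 317 to 350 lower). The difference rose to 2585 without SJ7, that is with SJ8 as the sole R788 control, and was 1521 without SJ8; it was 1034, 1063 and 1069 without SJ2, SJ6 and SJ12, and the cause was not tested. With 1 library in an arm, that library is assumed to vary like the other groups. edgeR called 6473, 1196 and 1196 genes. Of 208 values for single genes, all 208 kept direction and call under TMM scaling, counts divided by 2, edgeR and no filter; 10 lost the call with only the compared libraries in the fit, and 6 to 12 when a library was left out. No value reversed. No paired analysis was possible because each library carries a number of its own and no groups share one. Depth limits genes at a few counts, and SJ8 lists 0 for 1117 tested genes that SJ7 detects.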
